A study of Caenorhabditis elegans with 8 samples.

Results

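The 569 regions described here, called pooled-only, are editing-enriched regions (EERs) that appear in the authors' list made from all samples together, but in none of their 4 lists made from single stages. An EER is a stretch of genome in which the authors found adenosines read as guanosines in clusters. The members were taken from the series-wide list of 1523 EERs: each overlaps no region of a stage list by even 1 bp on either strand, and each overlaps a gene of the deposited expression table. They make up 37.4% of the list. Another 630 EERs in genes overlap a stage list (called stage-listed below), 150 EERs are also absent from the stage lists but lie outside genes, and 174 stage-listed EERs lie outside genes. All samples came from whole wild-type Caenorhabditis elegans of strain Bristol N2 grown in liquid medium at 20 °C, as mixed-stage embryos, early larvae (L1-L2, 6 to 20 hours of culture), late larvae (L3-L4, 28 to 42 hours) and young adults (50 to 54 hours). Each larval sample pooled animals between and within a moult, in 5 parts of either intermoult stage and 2 parts of the moult. At each stage RNA pulled down with the J2 antibody against double-stranded RNA (dsRIP) was sequenced beside total RNA, giving 1 sample per stage and molecule and 3 numbered columns per sample.

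Long double-stranded RNA forms when a transcript folds back on an inverted repeat or pairs with an antisense transcript. Adenosine deaminases that act on RNA (ADARs) convert adenosine to inosine in such duplexes, and inosine is read as guanosine after reverse transcription, so clustered A-to-G differences mark duplex RNA. In C. elegans, ADAR editing keeps such RNA from entering the RNA interference pathway, and many edited duplexes lie in introns and other non-coding sequence of transcribed genes.

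The 569 regions were short and thinly read. Their median length was 263 bp (52 to 2478 bp), against 592 bp for the 630 stage-listed EERs in genes. The median score that the authors gave a region, an integer of meaning not given in the sources used here, was 3 (2 to 21), against 10.5. A median of 19 reads (5 to 528) fell on a member over all 8 samples, against 60 reads on a stage-listed region. The lowest score in the list, 2, was held by 207 members (36.4%) and by 6.67% of the stage-listed EERs in genes. With EERs in genes split by reads into 4 groups of like size, members made up 87.3% of the lowest group and 14.4% of the highest. The members were chosen by the authors' calls of edited reads in these same samples, so reads, scores and lengths are given as a description with no test.

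**Figure D1:**
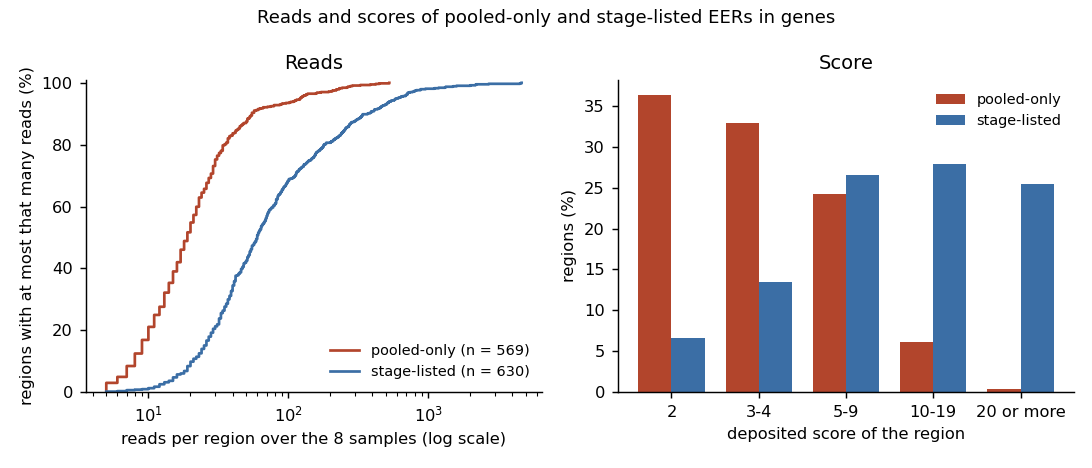
Left, the share of regions (%) with at most a given number of reads over the 8 samples (log axis), for the 569 pooled-only and the 630 stage-listed EERs in genes. Right, the share of regions (%) in each class of the deposited score. The pooled-only curve lies to the left, with a median of 19 reads against 60, and 36.4% of pooled-only regions have a score of 2.

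The members nearest to a stage list without touching it were EA6_EER1029- in ptpn-22, which encodes a protein tyrosine phosphatase, EA6_EER1069+ in tftc-1, a gene for a subunit of the polymerase III factor TFIIIC, and EA6_EER951+ in unc-64. They lay 194, 1009 and 1019 bp from a stage-listed region and held 11, 7 and 53 reads. Just outside the rule, the smallest overlaps with a stage list were 37 bp for EA6_EER71+ in herc-1, 52 bp for EA6_EER636- in spsb-1 and 52 bp for EA6_EER768- in F10E9.7, and these regions held 27, 27 and 25 reads. The median distance of a member from a stage-listed region was 13037 bp, and 257 members (45.2%) lay within 10 kb of one. Of the 569 members, 18 overlapped another EER of the list, in each case on the opposite strand. Whether the authors counted by strand is not stated, so the reads of such a pair cannot be told apart.

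The dsRIP samples pooled over stages listed most of the members, and the total RNA samples few. The authors also listed EERs from all dsRIP samples together and from all total RNA samples together. The dsRIP list held 325 members (57.1%), against 93.8% of the stage-listed EERs in genes. The total RNA list held 43 members (7.56%), against 54.6%. By membership, 300 were in the dsRIP list only, 25 in both, 18 in the total RNA list only and 226 (39.7%) in neither, so the last group was listed only with all 8 samples together. Those 226 had a median score of 2 and a median of 15 reads, and the 300 in the dsRIP list only had a median score of 4 and a median of 21 reads.

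The members' shares of most chromosomes were close to those of the other EERs in genes. Chromosome I held 170 of them (29.9%, against 31.3% of stage-listed EERs and 14.2% of all genes), and chromosome III held 130 (22.8%, against 20.8% and 13.4%). Chromosome V held 86 (15.1%, against 23.1% of genes). The X chromosome held 20 members (3.51%, against 1.27% of stage-listed EERs and 15.9% of genes). The outer 25% at either end of a chromosome held 486 members (85.4%), against 87.3% of stage-listed EERs in genes and 42.8% of genes; chromosome ends were set at the outermost gene of the table. On the X chromosome 70.0% of the members were in these outer zones, against 46.3% of its genes. Neighbouring regions share a genome segment and are not independent, so these shares were not tested. Of 250-kb windows, 4 had 10 or more members and together held 63. The fullest was chrI:1000001-1250000 with 20 members in 10 genes, which include haf-6, smg-2 and herc-1.

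**Figure D2:**
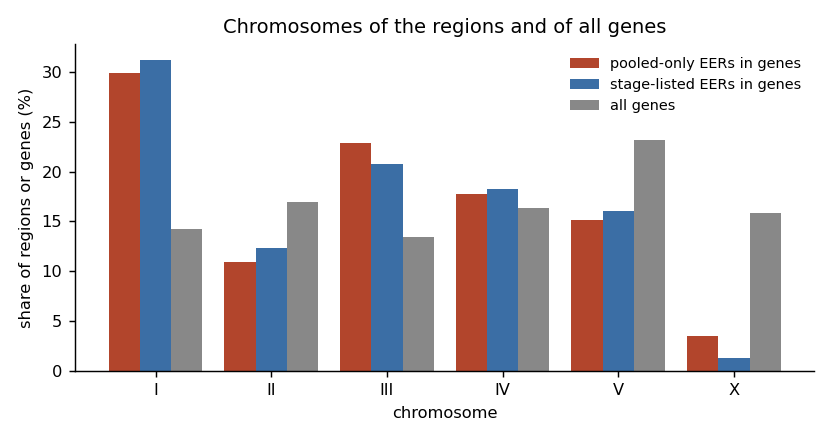
Share (%) of the 569 pooled-only EERs in genes, of the 630 stage-listed EERs in genes and of all 22828 genes on each chromosome. On chromosomes I and III both kinds of EER hold a larger share than genes do, and on the X chromosome a smaller one (3.51% and 1.27%, with 15.9% of genes).

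The members lay in 494 host genes, of which 423 held 1 member, 54 held 2 and 17 held 3 or more. By a WBcel235 annotation joined on sequence names, 461 hosts are protein coding, 9 are pseudogenes, 6 are non-coding RNA genes and 2 are small nuclear RNA genes, and 16 had no match. The hosts were long: their median span was 7117 bp, against 1763 bp for all 22828 genes and 7427 bp for hosts of stage-listed EERs. Hosts were taken by overlap with their span, which favours long genes, so the difference from all genes is a description. The length over which the authors counted a host's reads, solved from the steps of its values, was a median of 27.7% of its span (488 hosts solved). Whether a member lies in an exon, an intron or an untranslated region was not determined here. Of 534 members whose strand could be set against 1 host strand, 22 (4.12%) lay antisense to the host, against 5.96% of stage-listed EERs. Along the host from its 5′ end, 21.1%, 27.3%, 30.3% and 20.9% of 531 members were centred in 4 successive parts of the span of equal length, so no end of the gene held most of them. A stage-listed EER lay in the same host for 162 members (28.5%).

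The gene gcn-1, whose product acts in translational control through the eIF2 kinase pathway, held the most members, 6, all on its own strand (EA6_EER697+ to EA6_EER702+, between chrIII:2167629-2167912 and chrIII:2191647-2191820). Together they had 76 reads in dsRIP and 27 in total RNA, beside 2457 dsRIP reads and 3330 total RNA reads counted on gcn-1 itself. EA6_EER702+, 174 bp long, had 8.87, 26.9, 20.7 and 8.21 FPKM in dsRIP of embryos, L1-L2, L3-L4 and young adults, against 3.59, 5.01, 5.44 and 2.38 FPKM in total RNA. FPKM is fragments per kilobase scaled to library size, and each value is the mean of 3 columns. These values rest on 16 dsRIP reads and 6 total RNA reads. All 4 dsRIP values were above all 4 total RNA values, but the region was picked by its call, so this is a description. The other 5 members in gcn-1 had 2 to 18 dsRIP reads and 2 to 10 total RNA reads over the 4 stages.

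The gene haf-6, which encodes an ABC transporter needed for efficient RNA interference, held 5 members and no stage-listed EER. They had 79 reads in dsRIP and 36 in total RNA, with 301 and 443 reads on haf-6 itself. EA6_EER56- and EA6_EER57+ overlap on opposite strands at chrI:1163222-1164075 and chrI:1163822-1164366. EA6_EER60-, 70 bp at chrI:1174886-1174955, had 57.8, 11.2, 26.4 and 24.2 FPKM in dsRIP over the 4 stages and 0 in all 4 total RNA samples. These levels rest on 11 dsRIP reads. With 3 reads set for the total RNA of all stages together in place of 0, EA6_EER60- was 5.52-fold higher in dsRIP per read sequenced. Counting error of the dsRIP reads was left out, so this fold is not a strict lower bound.

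The adjacent gene smg-2, the C. elegans UPF1 helicase of nonsense-mediated mRNA decay, held 4 members with 40 dsRIP reads and 10 total RNA reads. EA6_EER61+ (chrI:1177325-1177420) was another region with 0 total RNA reads, with 12 reads in dsRIP and a fold of 6.03 set in the same way. In all, 16 members had 0 reads in total RNA, with 5 to 15 reads in dsRIP and such folds of 2.51 to 7.53. They were picked by their 0 total RNA reads, so the direction was fixed and the folds are a description. The highest fold was that of EA6_EER422- in exc-4, which encodes a chloride intracellular channel protein of the excretory canal. No member had 0 reads in dsRIP.

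The 4 stages differed in how many members were seen. In dsRIP the members together took 3072 ± 196 RPM (reads scaled to library size) in embryos, 2494 ± 315 in L1-L2, 1648 ± 522 in L3-L4 and 1246 ± 253 in young adults (mean ± SD, n = 3 columns each). In total RNA they took 1350 ± 185, 1000 ± 105, 795 ± 165 and 707 ± 147 RPM. The dsRIP level was above the total RNA level at every stage, by 2.28-fold, 2.49-fold, 2.07-fold and 1.76-fold, and stage-listed EERs in genes gave 2.36-fold, 2.68-fold, 1.99-fold and 1.91-fold. In whole animals, fewer cells of a type and less RNA per cell cannot be told apart. Single stages gave few reads for a single member: the median was 4, 4, 3 and 2 reads in dsRIP and 2, 1, 1 and 1 reads in total RNA, from embryos to young adults. Members with 0 reads numbered 48, 40, 55 and 145 in dsRIP and 108, 152, 171 and 238 in total RNA. All 4 dsRIP samples held reads of 361 members (63.4%, against 84.9% of stage-listed EERs in genes). All 4 total RNA samples held reads of 206 (36.2%, against 69.0%).

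**Figure D3:**
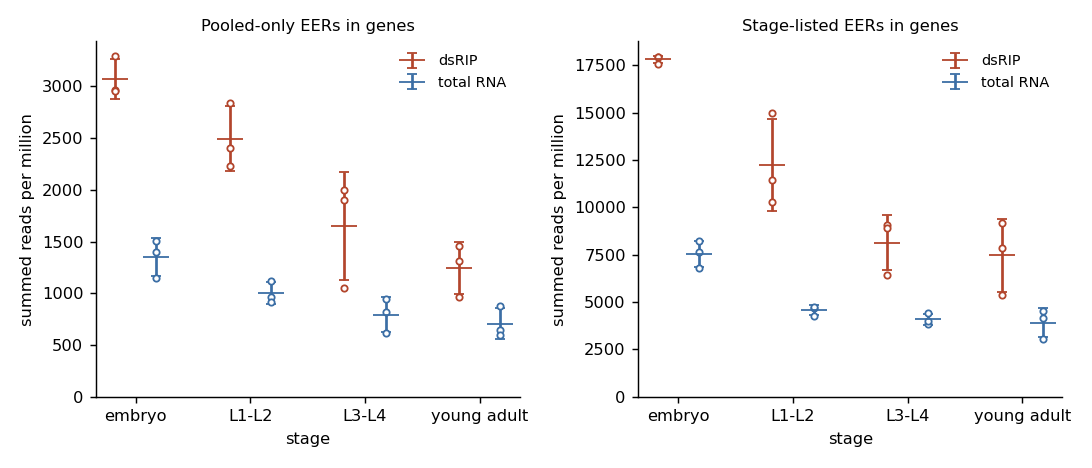
Summed RPM (reads scaled to library size) of the pooled-only (left) and stage-listed (right) EERs in genes at the 4 stages, in dsRIP and total RNA. Circles are the 3 columns of a sample, and bars are their mean and SD. In both panels dsRIP lies above total RNA at each stage, and dsRIP of embryos has the highest mean (3072 RPM for the pooled-only regions).

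For the dsRIP to total RNA ratio of single members, log2(FPKM + 1) was compared over the 4 stages with limma, with stage as a block. A region needs edited reads from these same samples to be listed, so the ratios of the members are a description. Of the 569 members, 56 (9.84%) were higher in dsRIP at an adjusted p under 0.05 and 0 were lower, against 18.9% and 0% of the 1537 EERs in the fit and 2.11% and 2.12% of all genes and EERs. Zeros shape these calls: 8 of the 56 had 0 reads in all total RNA samples, 39 were at 0 in at least 1 total RNA sample, and 13 had at least 1 FPKM in all 8 samples, as 113 of all members did. In a region at 0 in total RNA the direction is fixed and the spread between stages can be small, as in EA6_EER257- in dnj-28, called on 5 dsRIP reads, and 26 members entered the fit through dsRIP samples alone. At an unadjusted p under 0.05 limma gave 295 members higher and 6 lower. The count of 56 rested on all 4 stages: it was 14 without the embryo pair, 2 without the L1-L2 pair, 0 without the L3-L4 pair and 1 without the young adult pair, and it was 4 without the stage block. The median log2 ratio of members was 1.37 (quartiles 0.76 and 1.90), against 1.33 for stage-listed EERs in genes and -0.12 for genes. Of the members, 524 had a ratio above 0, and 258 were above 0 at each of the 4 stages.

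Among the 13 called members with at least 1 FPKM in all 8 samples, the largest ratios were in aka-1, Y50D7A.3, lst-4 and tcc-1. Members not called were not ranked. EA6_EER505- in aka-1, a gene for an A-kinase anchoring protein, had 9.32, 22.5, 10.2 and 6.38 FPKM in dsRIP, against 2.59, 2.08, 1.08 and 1.40 FPKM in total RNA, from embryos to young adults. These values rest on 23 dsRIP reads and 6 total RNA reads, and the log2 ratio was 2.13 ± 0.32 (SE, 4 stages). In dsRIP of embryos and young adults the SD of its 3 columns, 9.94 and 6.53 FPKM, exceeded the mean. EA6_EER645+ in Y50D7A.3 was the better covered, with 91 reads in dsRIP and 30 in total RNA. It had 87.9, 168, 80.2 and 55.3 FPKM in dsRIP, against 31.0, 30.1, 14.5 and 13.9 FPKM in total RNA, a log2 ratio of 2.06 ± 0.19. Its L1-L2 dsRIP value was the highest of the 8. The regions of this group were picked by their call, so the distance between their dsRIP and total RNA values is a description. EA6_EER1206- in lst-4, a sorting nexin gene, and EA6_EER1423- in tcc-1 had log2 ratios of 2.03 ± 0.26 and 2.02 ± 0.19. They held 30 and 27 dsRIP reads, and 8 and 7 total RNA reads. The next were EA6_EER1207+ in cfp-1 (1.88 ± 0.30), a gene for a CXXC protein of the histone H3 lysine methyltransferase complex, EA6_EER1202- in rsd-2 (1.73 ± 0.24), a gene required for systemic RNA interference, EA6_EER1178- in Y67H2A.10 (1.66 ± 0.20), EA6_EER702+ in gcn-1 (1.63 ± 0.24), EA6_EER1471- in fars-2 (1.56 ± 0.22), a phenylalanyl-tRNA synthetase gene, and EA6_EER194+ in Y37E3.17 (1.51 ± 0.20). Over the 4 stages these next regions held 16 to 80 dsRIP reads and 6 to 35 total RNA reads.

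**Figure D4:**
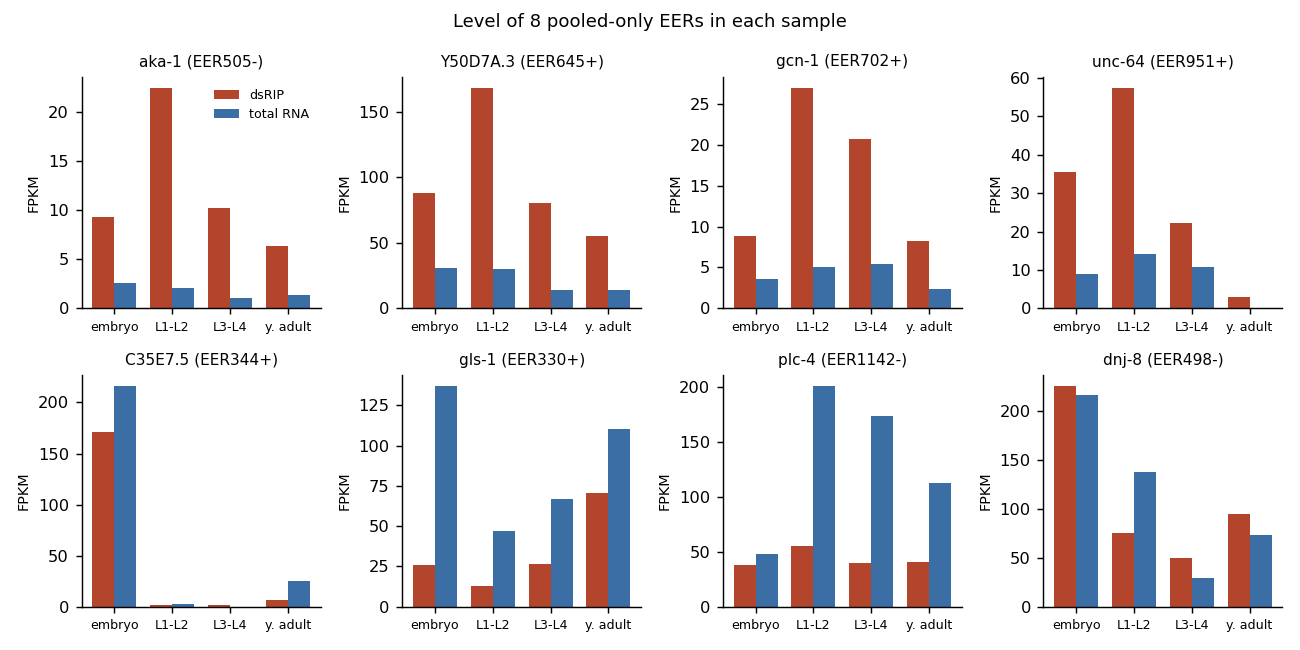
FPKM of 8 pooled-only EERs in dsRIP and total RNA at the 4 stages (each bar the mean of 3 columns, with its own axis per region). The regions in aka-1, Y50D7A.3, gcn-1 and unc-64 are higher in dsRIP at each stage, those in gls-1 and plc-4 are lower at each stage, and that in C35E7.5 is high in embryos.

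At the other end, 45 members had a ratio below 0, and 5 were below 0 at all 4 stages. Those 45 were short, with a median of 81 bp, and had a median score of 2. Their median total RNA level was 8.97 FPKM, against 2.47 FPKM for the 524 members above 0. In dsRIP the medians were 9.23 and 9.84 FPKM. The groups were split by a ratio that holds the total RNA level, so this difference follows from the split. EA6_EER330+ in gls-1, a translational regulator of the germ line, had 25.9, 13.1, 26.7 and 70.3 FPKM in dsRIP, against 137, 47.0, 66.9 and 110 FPKM in total RNA. Each stage was lower in dsRIP, although the young adult dsRIP value was above 2 of the total RNA values, and the log2 ratio was -1.51 ± 0.29. EA6_EER1142- in plc-4, a phospholipase C gene, had 37.9, 55.1, 39.4 and 40.9 FPKM in dsRIP, against 48.0, 200, 174 and 113 FPKM in total RNA, a log2 ratio of -1.43 ± 0.31. EA6_EER1363- in ttn-1, the C. elegans titin gene, was longer, 863 bp, with 36 dsRIP and 196 total RNA reads and a log2 ratio of -1.57 ± 0.29. The remaining regions below 0 throughout were in pipp-4P and in mnat-1, and the mnat-1 region (EA6_EER480-, 113 dsRIP and 214 total RNA reads) was the closest to 0 at -0.30 ± 0.12.

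The members with the highest levels per length were 56 to 119 bp long and had scores of 2 or 3. Besides those in gls-1 and plc-4 they were EA6_EER1389+ in frm-7, EA6_EER498- in dnj-8 and EA6_EER502+ in ZK1127.6, with log2 ratios of -0.01 ± 0.26, 0.08 ± 0.27 and -0.07 ± 0.32. EA6_EER498- in dnj-8, a J-domain chaperone gene, had 224, 75, 49.6 and 94.8 FPKM in dsRIP, against 216, 137, 29.3 and 72.7 FPKM in total RNA, so the molecules overlapped and their order changed with stage. The 5 longest members, 2087 to 2478 bp, were in Y67H2A.7, nipa-1, ccct-1, zip-1 and Y47G6A.29. Their log2 ratios were 0.80 ± 0.20, 0.76 ± 0.35, 0.72 ± 0.29, 0.76 ± 0.34 and 0.37 ± 0.20, each below the median of the members. By score the highest were EA6_EER1075+ in Y69A2AR.17, at 21, and EA6_EER617- in Y48B6A.13, at 20. All 37 members with a score of 10 or more had a ratio above 0, were in the dsRIP list and lay in the outer 25% at a chromosome end. Over all 569 members these shares were 92.1%, 57.1% and 85.4%. Scores and lists come from the authors' calls on these same samples, so these counts are a description.

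A few members were seen mainly at 1 stage. Among the 392 members with a mean of at least 5 FPKM, a stage was called apart when it differed at least 4-fold from the mean of the other 3 stages, in the same direction in both molecules. With 1 sample per stage and molecule there is no test. Embryos were apart upwards for 14 members (3.57%, against 6.13% of the 1175 EERs with such a mean) and downwards for 11 (2.81%, against 3.15%). L1-L2 larvae were apart upwards for 4 members (1.02%, against 1.62%) and downwards for 11 (2.81%, against 3.15%). L3-L4 larvae were apart upwards for 1 (0.255%, against 0.0851%) and downwards for 21 (5.36%, against 4.94%). Young adults were apart upwards for 0 members (0%, against 0.0851%) and downwards for 51 (13.0%, against 11.9%). At these read depths a downward call can rest on a few missing reads.

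EA6_EER344+ in C35E7.5 was the best covered of them. This 393-bp region (chrI:10824846-10825238) had 171, 2.08, 1.68 and 7.10 FPKM in dsRIP and 216, 2.94, 0 and 25.1 FPKM in total RNA. Embryos gave 81 of its 86 dsRIP reads and 169 of its 191 total RNA reads. Its host had a like pattern, with 166, 3.18, 0.870 and 14.7 FPKM in dsRIP and 176, 3.63, 0.625 and 17.2 FPKM in total RNA, and both were high in embryos and low in larvae. Young adults had 0 reads in both molecules for EA6_EER384+ in gale-1, a UDP-galactose epimerase gene, EA6_EER723+ in cdh-1, a cadherin gene, and EA6_EER80- in grh-1, which encodes the Grainyhead transcription factor. These regions, 54, 56 and 60 bp long, had 19, 8 and 11 dsRIP reads and 8, 7 and 7 total RNA reads over the other stages.

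The host genes themselves had ratios near 0. Of 490 hosts tested with limma, 5 (1.02%) were higher in dsRIP at an adjusted p under 0.05 and 11 (2.24%) lower, against 0.754% and 2.29% of all 19091 genes tested. The median log2 ratio of hosts was -0.07, against -0.12 for genes. Scaling samples to equal medians turned this balance, with 13 hosts higher and 5 lower and a median host ratio of 0.087. These calls needed all 4 stages: without the embryo pair 1 was higher and 1 lower, and without any other pair, or without the stage block, 0 were called in either direction. In the 546 members with 1 tested host, the region's ratio was above that of its host in 504 (92.3%), by a median of 1.40 on the log2 scale, against 96.2% and 1.34 for 582 stage-listed EERs. The regions were listed from edited reads of these same samples, so this difference is a description. Per length the members stayed below their hosts: their median level was 9.94 FPKM in dsRIP and 2.74 in total RNA, with 23.6 and 24 FPKM for the hosts. The region exceeded its host in dsRIP for 117 of 547 members (21.4%) and in total RNA for 25 (4.57%). A read may stand in both a region and its host. Members' reads exceeded the host's in dsRIP in 10 of 488 hosts, and which reads region and host share is unknown.

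**Figure D5:**
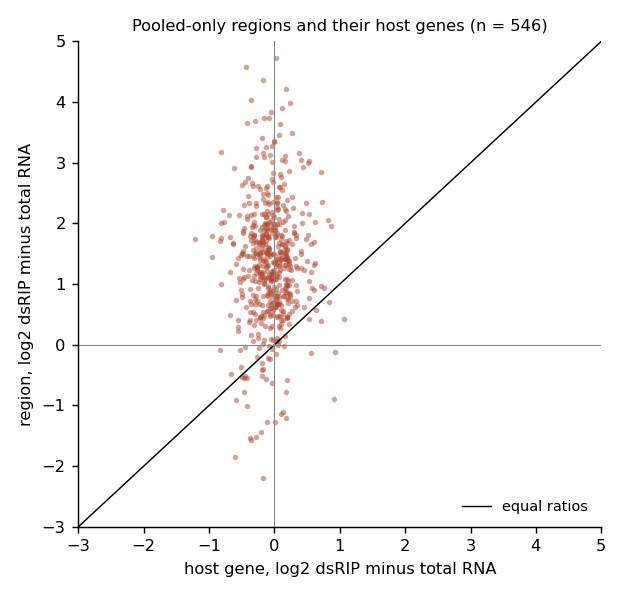
Log2 ratio of dsRIP to total RNA, on the log2(FPKM + 1) scale, of 546 pooled-only regions (vertical) against that of their host gene (horizontal); each point is a region, and the diagonal marks equal ratios. Hosts lie close to 0, and 504 regions (92.3%) are above the diagonal. The regions were listed from edited reads of these same samples, so the figure is a description.

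The host unc-64 showed the opposite direction from its member. This gene for the neuronal syntaxin is a known C. elegans ADAR substrate. EA6_EER951+ (chrIII:13281680-13281912) had 35.6, 57.4, 22.2 and 3.07 FPKM in dsRIP, against 9.02, 14.3, 10.7 and 0 FPKM in total RNA. It was higher in dsRIP at each stage, with 37 reads in dsRIP and 16 in total RNA, and in young adults it rested on 1 dsRIP read. Its log2 ratio was 1.70 ± 0.22. The unc-64 gene had 23.6, 61.3, 40.4 and 14.9 FPKM in dsRIP, against 46.8, 96.5, 68.7 and 29.8 FPKM in total RNA, and fell by 0.83 ± 0.09 on the log2 scale (limma, adjusted p = 0.022). The gene was lower in dsRIP at each stage, and it also holds 1 stage-listed EER. The host tcc-1, which fell by 0.78 ± 0.07 (limma, adjusted p = 0.015), and EA6_EER1423- also lay on opposite sides of 0. Of the 13 members in the 11 lower hosts 12 had a ratio above 0, and of the 5 in the 5 higher hosts 4 did; over all 569 members the share above 0 was 92.1%.

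Among the 5 higher hosts, wve-1 encodes a WAVE protein that drives actin assembly, and mdt-17 a Mediator subunit. The gene wve-1 had 98.7, 33.8, 32.4 and 54.6 FPKM in dsRIP, against 55.0, 17.5, 16.2 and 27.4 FPKM in total RNA, and rose by 0.92 ± 0.07 (limma, adjusted p = 0.014). Its member EA6_EER366- had 2 dsRIP and 4 total RNA reads, and another, stage-listed EER lies in the same gene. The gene mdt-17 rose by 0.86 ± 0.11 (limma, adjusted p = 0.029), and its member EA6_EER1484- had 16 dsRIP reads and 1 total RNA read. Y92H12BL.1 rose by 1.06 ± 0.11 (limma, adjusted p = 0.021), faah-4, a fatty acid amide hydrolase gene, by 0.64 ± 0.08 (adjusted p = 0.030) and epg-3, an autophagy gene, by 0.60 ± 0.10 (adjusted p = 0.049). Stage-listed EERs also lay in mdt-17 (1) and Y92H12BL.1 (2), and in neither faah-4 nor epg-3. Over all hosts, 23.5% held a stage-listed EER. EA6_EER830- in faah-4 had as many reads in dsRIP as in total RNA, 102 each, and a log2 ratio of 0.58 ± 0.15. The largest falls were in Y82E9BR.22 (-1.22 ± 0.17, adjusted p = 0.035), prcc-1 (-0.96 ± 0.12, adjusted p = 0.029) and F18E9.3 (-0.95 ± 0.13, adjusted p = 0.035), and in rabx-5, a gene for a guanine nucleotide exchange factor of Rab5, the value was -0.81 ± 0.12 (adjusted p = 0.040), all by limma. Among hosts with 3 or more members tat-1, a phospholipid flippase gene, was lower (-0.48 ± 0.07, limma, adjusted p = 0.041), and it also holds 2 stage-listed EERs.

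Genes of RNA interference were among the hosts. Of 49 genes listed for double-stranded RNA and RNA interference, 4 held members, against 494 of 22828 genes (2.16%): ergo-1, an Argonaute of the 26G endogenous small RNAs, eri-1, an exonuclease gene that limits RNA interference, and the 5′ to 3′ exonuclease genes xrn-1 and xrn-2. The list is not complete: haf-6 and rsd-2, hosts that also act in RNA interference, are not on it. Genes of RNA interference that are off the list and hold no member were not counted. By limma 0 of the 49 were higher in dsRIP and 1, sid-5, was lower, and none of the 4 hosts was called. EA6_EER979- in eri-1 had 11.5, 10.9, 12.1 and 8.59 FPKM in dsRIP, against 0, 1.77, 5.43 and 1.72 FPKM in total RNA. The log2 ratio of this region, which was named after its values were seen, was 2.15 ± 0.46 on 17 and 5 reads. EA6_EER1274+ in ergo-1 had 35.8, 10.1, 8.69 and 3.97 FPKM in dsRIP, against 18.6, 2.86, 5.83 and 8.43 FPKM in total RNA. It was higher in dsRIP at the first 3 stages and lower in young adults, with a log2 ratio of 0.51 ± 0.42. The ergo-1 gene was at 152 FPKM in dsRIP and 151 in total RNA of embryos, and at most 35.6 FPKM at the other stages. The insulin receptor gene daf-2, which also holds 4 stage-listed EERs, held EA6_EER728-, with 11.6, 12.5, 7.62 and 7.84 FPKM in dsRIP, against 1.58, 4.56, 4.12 and 3.72 FPKM in total RNA.

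The other gene groups were made from symbol prefixes and so hold genes of other function. Membrane traffic had 8 hosts of 127 genes (6.30%), nonsense-mediated decay and splicing 3 of 45 (6.67%), the list of neuronal channel, receptor and unc symbols 8 of 363 (2.20%), chromatin 4 of 187 (2.14%), transporters 2 of 95 (2.11%) and nuclear receptors 3 of 242 (1.24%). In the neuronal list 6 of the 8 hosts were unc genes, among them unc-64 itself, and the others were lgc-21 and npr-23. Chemoreceptor genes held 0 members in 819 genes, of which only 144 passed the FPKM filter of the fit, against 18019 of all 22828 genes. F-box, BTB and MATH genes held 3 in 389, C-type lectin genes 1 in 177, and the collagen list 1 in 189. That last host, dpy-28, entered by its symbol's prefix and encodes a condensin subunit. Of 9 ADAR substrates from earlier work 1, unc-64, held a member. Groups differ in gene length and expression, whose part in these counts was not tested. Of the hosts in these groups limma called 1, unc-64.

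The libraries were shallow as the files show them. A column held 348064 to 914442 reads recovered from the steps of its values, dsRIP samples held 1211042 to 1751557 and total RNA samples 1992079 to 2264595. Embryo marker genes summed to 148 FPKM in dsRIP and 140 FPKM in total RNA of embryos, and to at most 25.2 FPKM elsewhere. Adult markers summed to 4937 and 4701 FPKM in young adults, and to at most 34.3 FPKM elsewhere. Sperm markers were highest in young adults as a sum, at 353 FPKM in dsRIP and 453 in total RNA. Among them spe-9 was not raised in young adults, at 0.812 and 1.38 FPKM, with 2.06 FPKM in total RNA of L3-L4. Moulting markers were highest in embryos as a sum, at 1008 FPKM in dsRIP and 989 in total RNA, and next highest in L3-L4, at 401 and 421 FPKM. The largest part of the embryo sum was noah-1, at 521 and 405 FPKM. The marker nas-37 went the other way, with 0.378 and 0 FPKM in embryos and 15.1 and 18.2 FPKM in L3-L4.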

How the data were processed

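The authors' deposited table gives FPKM for 25509 genes and 1541 EERs in 24 columns, 3 for each of 8 samples; the submitters' processing notes name Novoalign, bedtools 2.19.0, SAMtools 0.1.19 and the build ce10. The authors' deposited region lists give each EER a position and a score. Labels name 1 sample per stage and molecule, so the 3 columns were averaged; whether they are separate cultures is not stated, and p-values measure the spread between stages. For 1 sample titled L4-L4 the stage characteristic, L3-L4, was used. Each column was mapped to a sample (0 unmapped).

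Members and gene lists were chosen with earlier results of these data known. Members followed the overlap rule in Python 3.11.15. Reads of EERs were recovered as whole multiples of the smallest step per column (100% within 0.05 of a whole number). Ratios of dsRIP to total RNA were tested with limma 3.58.1 in R 4.3.3 (trend, stage as block) on log2(FPKM + 1), for features of at least 1 FPKM in at least 2 samples, with Benjamini-Hochberg adjustment over 20628 genes and EERs; the script was tested on simulated data. A change on that scale understates low features. Named members were the 10 largest ratios each way past the threshold with 1 sign at all stages and at least 1 FPKM throughout (none was lower), the 5 longest, the 5 most abundant, the 3 nearest each side of the rule and up to 3 per stage; named hosts held 3 or more members, belonged to a list or were the 5 largest changes each way. Others named (those in dnj-28, haf-6, smg-2, exc-4, ttn-1, mnat-1, pipp-4P, daf-2, unc-64, eri-1 and ergo-1, those with the highest scores, and the host tcc-1) were chosen after their values were seen. Symbols came from WBcel235 by sequence name (25092 of 25509 genes). Alternatives were other pseudocounts, filters, scalings, overlaps and left-out stages. No sequence is printed.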

Additional observations from a re-analysis of the deposited data

How the results depend on the processing

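With 56 members higher and 0 lower as the starting counts, no filter gave 34 higher, equal medians 93, no stage block 4, and a filter of 5 FPKM 81 higher and 2 lower. Hosts, 5 higher and 11 lower to begin with, became 4 higher and 5 lower without the filter. They became 13 higher and 5 lower with equal medians, and 0 in either direction without the stage block. Leaving out 1 stage pair gave 0 to 14 members higher, 0 to 1 lower, 0 to 1 hosts higher and 0 to 1 hosts lower. Equal medians moved the median gene to 0.04, against -0.12, and the median host to 0.087, against -0.07; a pseudocount of 5 brought the members' median to 0.74. In each of these fits that median was above 0, and it was 1.24 to 1.45 with a stage pair left out; the hosts' median was -0.11 to -0.04. The replicate numbers carry no stated pairing. For well expressed features, each column's deviation from its sample's mean was correlated between dsRIP and total RNA of a stage. Same-numbered columns gave 0.04 to 0.58 and differently numbered columns -0.37 to 0.22. The deviations sum to 0 over the 3 columns of a sample, so these ranges depend on each other. They are not correlations of levels. A fit of the 24 columns with a replicate block gave 135 members higher and 3 lower, and 26 hosts higher and 50 lower. Taking the upper 50% by score left 120 members, 88.3% in the dsRIP list; overlap of 50% gave 572 and same strand 585. A wider outer zone of chromosomes held 91.6% of members. A 2-fold instead of a 4-fold difference between stages made 347 calls instead of 113, summed over stages and directions. At 2-fold the largest groups were young adults downwards (27.8% of members, against 34.7% of 1175 EERs) and embryos upwards (19.1%, against 26.8%). Upwards in L1-L2 and L3-L4 the members' shares were above those of the EERs (9.69% against 8.94%, and 1.79% against 1.11%). Antisense members were 4.17% with 1 host only. The cause of these changes was not tested. No named value changed sign among those past the threshold. With a median of 19 reads per member, counting error and a few reads decide single-stage values. The floor of 3 reads covers counting error of the total RNA reads only.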
